A study of Mus musculus with 3 samples.

Results

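The Notch receptors, ligands, modifier, mediator and targets Notch1, Notch2, Notch3, Jag1, Jag2, Dll1, Lfng, Rbpj, Hes1 and Hey1 were followed across 3 sorted cell populations of mouse back-skin epidermis. These 10 genes were taken by name from the 49452 gene rows of each deposited file, and each was matched to 1 row. All mice were wild-type C57BL/6, 7 weeks old, with back skin in second telogen, the resting phase of the hair cycle, and received no treatment that the labels name. Group N was the CD34-negative cells of the sort, which the labels call non-stem cells and which hold every epidermal cell type without surface CD34. Group B was the basal bulge stem cells, positive for CD34 with high integrin alpha 6 (Itga6), and group S the suprabasal bulge stem cells, positive for CD34 with low Itga6. Each population's RNA, pooled from 4 mice, was amplified as 1 sample, so there was 1 library per group. No test was possible, no value has a replicate error, and each difference describes these 3 libraries.

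Notch signalling passes between touching cells. A Jagged or Delta-like ligand on one cell binds a Notch receptor on its neighbour, proteases cut the receptor, and the freed intracellular domain joins the DNA-binding protein Rbpj to switch on targets such as the Hes and Hey repressors. Fringe enzymes, of which Lfng is one, add sugars to the receptor and change which ligands activate it. In epidermis the pathway is known for its part in the step from the basal to the suprabasal layers, and in the hair follicle for maintaining follicular fates.

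Rbpj recognises DNA with the core letters TGGGAA. The 250 bases before the annotated start were available from RefSeq (GRCm38.p6) for 8 members, in 10 windows. TGGGAA, searched on both strands, was found in the windows of Lfng and Rbpj and in none of the other 6 members' windows. The starts of the Notch3 window and of the Dll1 window at chr17:15376933-15377182 were not found near the start of a GENCODE M21 transcript. Over all 32536 distinct windows of that length, 21.6% held it. The windows of Lfng, the member that differed most between the bulge layers, and of Rbpj, the member that differed least, are shown with the matches in capitals, beside that of Notch1, which has no match. They lie at chr5:140607091-140607340 (plus strand), chr5:53590096-53590345 (plus strand) and chr2:26503823-26504072 (minus strand), and each is written 5′ to 3′ on the strand of its gene.
Lfng: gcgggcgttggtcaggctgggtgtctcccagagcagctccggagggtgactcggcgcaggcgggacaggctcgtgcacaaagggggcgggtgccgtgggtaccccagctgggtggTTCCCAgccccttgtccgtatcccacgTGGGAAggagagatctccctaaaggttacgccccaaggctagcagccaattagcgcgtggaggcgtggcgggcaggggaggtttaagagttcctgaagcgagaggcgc
Rbpj: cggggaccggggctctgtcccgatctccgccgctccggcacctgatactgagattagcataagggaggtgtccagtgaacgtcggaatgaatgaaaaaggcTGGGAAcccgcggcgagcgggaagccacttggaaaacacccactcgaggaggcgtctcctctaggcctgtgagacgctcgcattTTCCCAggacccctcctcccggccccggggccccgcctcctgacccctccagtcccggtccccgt
Notch1: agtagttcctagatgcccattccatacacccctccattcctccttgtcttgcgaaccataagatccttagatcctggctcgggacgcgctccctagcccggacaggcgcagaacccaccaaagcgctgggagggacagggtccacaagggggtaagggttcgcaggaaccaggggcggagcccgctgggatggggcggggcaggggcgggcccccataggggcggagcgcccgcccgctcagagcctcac
The matches of Lfng begin 135 and 108 bases before the start, and those of Rbpj 149 and 65 bases before it. The windows shown for Rbpj and Notch1 lie inside the gene spans given below, before a start within the span. A match is a description of the letters and was not tested for binding.

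Levels are scaled FPKM, that is, deposited FPKM (fragments counted per kilobase of a transcript, for each M or mega of fragments) divided by a factor per library. They are per length and so are set side by side between genes. Differences between genes in amplification are not removed, so shares within a class are approximate. Depth was 35.3 M fragments in N, 31.3 M in S and 32.7 M in B. A gene was measured if its mean over the 3 libraries was at least 1, which 11575 genes and all 10 members reached. A gene is called higher or lower where the log2 ratio of (scaled FPKM + 1) has a size of at least 1, which is 2-fold on that scale and understates the ratio of low genes. The lowest member values, Lfng and Dll1 in S, rest on about 34 and 58 fragments, with counting SDs of about 17.2% and 13.2%. Every other member value rests on about 87 fragments or more. These figures leave out amplification and differences between mice.

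Of the genes of the sort antibodies, Cd34 was at 0.201 (N), 144 (B) and 215 (S) and so lowest in N, the population sorted as CD34-negative. Itga6 was at 115 (N), 49.3 (B) and 33.1 (S), highest in N and with a log2 ratio of S against B of -0.56, not called. Of 7 bulge markers, 6 were called higher than N in each bulge library, against 7.27% of all measured genes in B and 9.56% in S. The 6 include Cd34, whose difference follows from the sort. Krt15 was not called in B (log2 ratio of 0.87), and Tcf7l1 was not called in S (0.72). Of 6 basal keratinocyte markers, 1 was called lower in S than in B, Krt14, at 12.7 and 277. Of 5 markers of the inner bulge and the adjoining companion layer, 4 were higher in S than in B, such as Fgf18 at 282 and 12.2. Of 6 spinous layer markers, 4 were lower in S than in B and 1 was higher. Among other cell types, 0 of 6 endothelial, 0 of 6 pericyte and smooth muscle and 0 of 5 Merkel cell markers were measured.

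**Figure D1:**
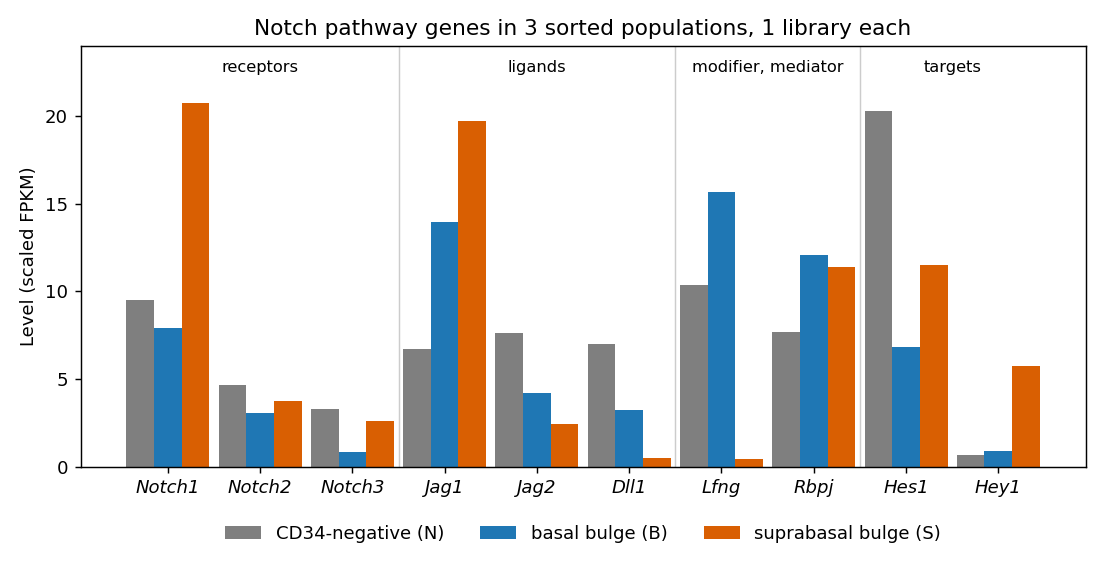
Level of each member (scaled FPKM, linear axis from 0) in the CD34-negative, basal bulge and suprabasal bulge libraries, 1 bar per library and hence no error bars. Notch1 and Jag1 are tallest in the suprabasal bulge, Hes1 in the CD34-negative cells, and Lfng is near 0 in the suprabasal bulge alone.

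The receptor genes were led by Notch1 in all 3 libraries. Notch1, on chromosome 2 (26457903 to 26516663, mm10, ENSMUSG00000026923), encodes the main Notch receptor of keratinocytes. Its level was 9.54 (N), 7.93 (B) and 20.8 (S). S was the high library, and N and B were close to each other. The level in S was 2.62-fold that in B and 2.18-fold that in N (log2 ratios of 1.29 and 1.05, both called), while B against N had a log2 ratio of -0.24. Of the 11575 measured genes, 289 had a larger ratio of S against B. In pooled RNA, fewer cells that express a gene and less RNA per cell cannot be told apart. A non-coding gene on the opposite strand that shares exon sequence with Notch1, 0610009E02Rik, had deposited FPKM of 0.0620 (N), 0.0707 (B) and 0.510 (S).

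Notch2, a second widely expressed receptor gene (chromosome 3, 98013527 to 98150361, ENSMUSG00000027878), was at 4.64 (N), 3.06 (B) and 3.72 (S). Its 3 levels lay within 1.52-fold of each other and no comparison was called. Notch3, a receptor gene known from vascular smooth muscle and also from suprabasal epidermis (chromosome 17, 32120820 to 32166880, ENSMUSG00000038146), was at 3.30 (N), 0.851 (B) and 2.61 (S). B was the low library. N was 3.88-fold above B, and the log2 ratio of B against N was -1.22. S was 3.07-fold above B, but on the log2 scale with the pseudocount the ratio was 0.96, just under the limit. The 6 pericyte and smooth muscle markers, a cell type known for Notch3, summed to 0.790 (N), 0.501 (B) and 0.651 (S), and their part in the level of Notch3 was not tested. Notch4, which completes the receptors, did not reach a mean of 1.

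Notch1 thus held 54.0% of the summed receptor level in N, 66.7% in B and 76.6% in S. Notch2 held 26.3%, 25.7% and 13.7% in the same order, and Notch3 18.7%, 7.16% and 9.62%. The summed level of the 4 receptor genes was 17.6 (N), 11.9 (B) and 27.1 (S).

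Among the ligand genes, Jag1 was high in both bulge libraries and Jag2 and Dll1 were highest outside the bulge. Jag1 (chromosome 2, 137081456 to 137116644, ENSMUSG00000027276) encodes Jagged 1. Its level was 6.73 (N), 14.0 (B) and 19.7 (S). S was 2.93-fold above N, with a log2 ratio of 1.42. B was 2.08-fold above N, with a log2 ratio of 0.95, just under the limit, and S against B had a ratio of 0.47.

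Jag2, which encodes Jagged 2 (chromosome 12, 112908590 to 112929495, ENSMUSG00000002799), was at 7.61 (N), 4.20 (B) and 2.45 (S). Its order was the reverse of that of Jag1, with N highest and S lowest. S against N was called lower (log2 ratio of -1.32, 3.11-fold), and neither step between neighbours in that order was called. Dll1, which encodes the Delta-like ligand of interfollicular basal cells (chromosome 17, 15367354 to 15376872, ENSMUSG00000014773), followed the same order more steeply, at 6.98 (N), 3.26 (B) and 0.474 (S). S was 14.7-fold below N and 6.88-fold below B, with log2 ratios of -2.44 and -1.53. A non-coding gene on the opposite strand whose exons overlap those of Dll1 in GENCODE M21, A930024N18Rik, had deposited FPKM of 0.741 (N), 0.371 (B) and 0.0161 (S), and reads of both strands cannot be told apart in the data used here.

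The sum over the 5 ligand genes was nearly level across the libraries, at 21.3 (N), 21.6 (B) and 22.7 (S), while its makeup was not. Jag1 held 31.6% of it in N, 64.8% in B and 86.9% in S. Dll1 held 32.7%, 15.1% and 2.08% in that order, and Jag2 35.7%, 19.5% and 10.8%. Dll3 and Dll4, which complete the ligands, did not reach a mean of 1.

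**Figure D2:**
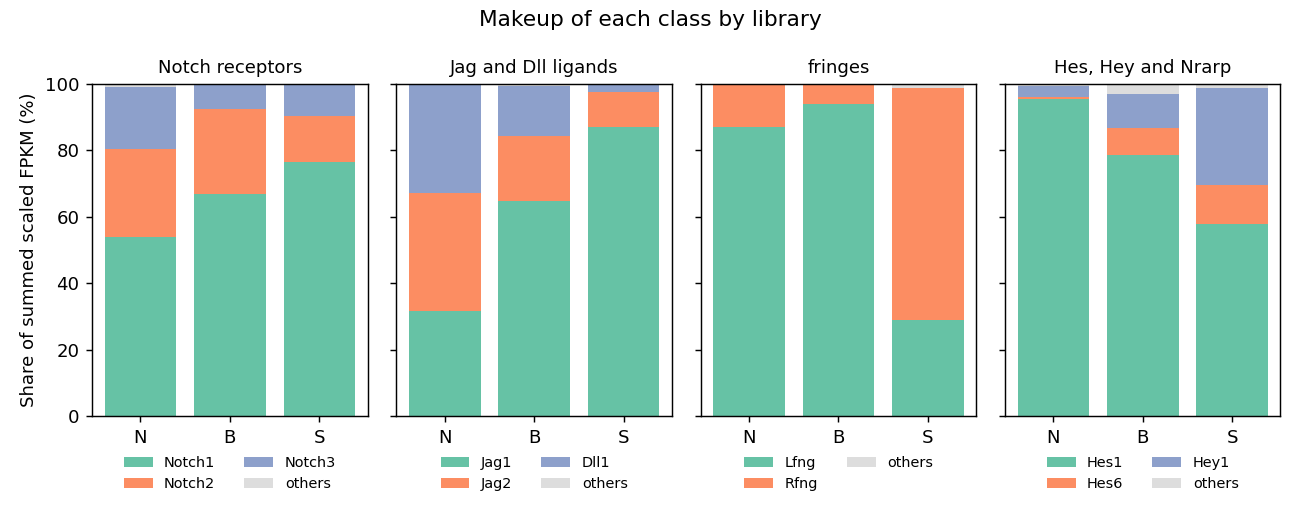
Share of each gene in the summed scaled FPKM of its class (%), for the receptors, the ligands, the 3 fringe genes, and the Hes and Hey genes with Nrarp, 1 column per library. Jag1 grows from 31.6% of the ligand sum in the CD34-negative library to 86.9% in the suprabasal bulge, and Lfng drops from 93.8% of the fringe sum in the basal bulge to 29.1% in the suprabasal bulge.

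Lfng differed more between the bulge layers than any other member. The gene (chromosome 5, 140607320 to 140615545, ENSMUSG00000029570) encodes lunatic fringe, the enzyme that extends the O-fucose on Notch. It was at 10.4 (N), 15.6 (B) and 0.465 (S). S stood apart from both other libraries, and B was highest. B was 33.6-fold and N 22.3-fold above S, with log2 ratios of S against them of -3.51 and -2.96. Only 64 of the 11575 measured genes had a lower ratio of S against B. Of the other fringe genes, Rfng was at 1.56 (N), 1.03 (B) and 1.12 (S), and Mfng was not measured. Lfng therefore made up 86.9% of the fringe level in N, 93.8% in B and 29.1% in S.

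Rbpj (chromosome 5, 53466152 to 53657362, ENSMUSG00000039191), the DNA-binding mediator that all Notch receptors share, was at 7.68 (N), 12.1 (B) and 11.4 (S). The bulge libraries were close to each other, with a log2 ratio of S against B of -0.08, and no comparison was called.

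The target genes Hes1 and Hey1, both repressors of transcription, had different orders. Hes1 (chromosome 16, 30064384 to 30067796, ENSMUSG00000022528) was at 20.3 (N), 6.84 (B) and 11.5 (S). N was the high library, 2.96-fold above B (log2 ratio of B against N of -1.44) and 1.76-fold above S (log2 ratio of S against N of -0.76, not called). Hey1 (chromosome 3, 8663359 to 8667256, ENSMUSG00000040289) was at 0.682 (N), 0.893 (B) and 5.77 (S). S was the high library, 6.46-fold above B and 8.47-fold above N, with log2 ratios of 1.84 and 2.01. N and B differed by 1.31-fold at about 87 and 94 fragments.

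The rest of the Hes and Hey family was low. Of the list of 10 genes that also holds the Notch feedback inhibitor Nrarp, only Hes1, Hey1 and Hes6 were measured. Hes6, a relative of Hes1 that can oppose it, was at 0.139 (N), 0.691 (B) and 2.37 (S), higher in S than in N by a log2 ratio of 1.56. Its log2 ratio of S against B was 0.99, just under the limit. Its mean of 1.06 reached the filter only through S. In S, Hes1 held 57.8%, Hey1 29.0% and Hes6 11.9% of the family's summed level, against 95.4%, 3.21% and 0.654% in N.

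**Figure D3:**
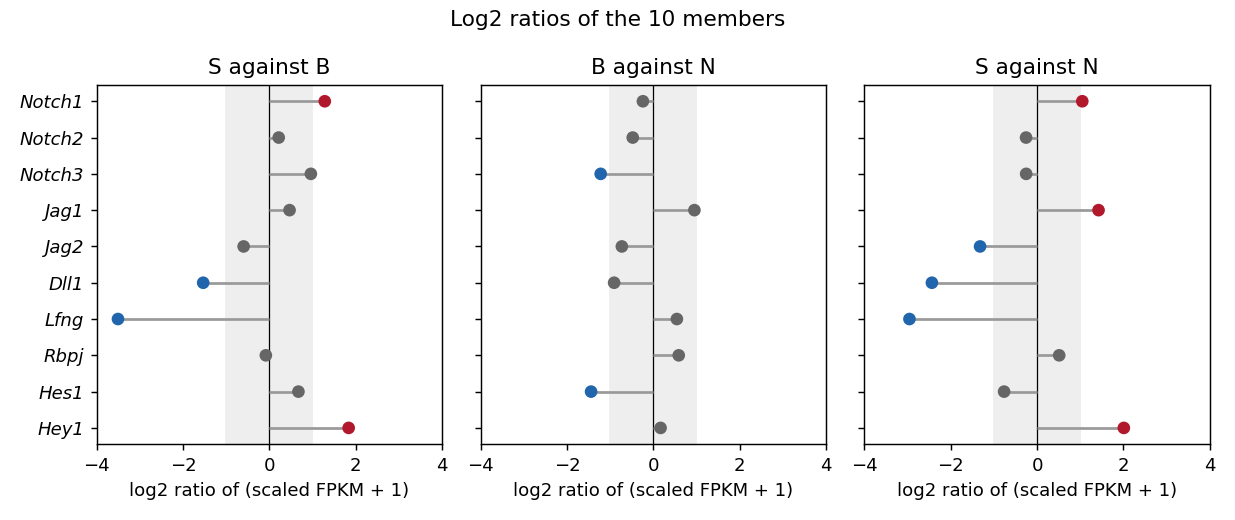
Log2 ratio of (scaled FPKM + 1) of each member in the 3 comparisons, 1 library on each side. The grey band spans -1 to 1, and points beyond it are called higher (red) or lower (blue), with Lfng at -3.51 and Hey1 at 1.84 in S against B.

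Between the bulge layers, 2 of 10 members were higher in S (Notch1 and Hey1) and 2 were lower (Dll1 and Lfng). Over all measured genes 3.89% were called higher in S and 5.93% lower. The members' median log2 ratio was 0.34, against 0.06 over all genes. In B against N, 0 members were higher and 2 lower (Notch3 and Hes1), against 7.27% and 7.1% of all genes, with a median of -0.36 against -0.04. In S against N, 3 were higher (Notch1, Jag1 and Hey1) and 3 lower (Jag2, Dll1 and Lfng), against 9.56% and 10.9% of all genes, with a median of -0.25 against 0.02. The 3 comparisons share libraries in pairs and are not independent of each other. Jag1 and Dll1 in B against N, at log2 ratios of 0.95 and -0.91, and Notch3 in S against B, at 0.96, lay just inside the limit, and Notch1 in S against N, at 1.05, just outside it. With a pseudocount of 5 in place of 1, the calls of Notch1, Dll1 and Hey1 in S against B (0.99, -0.59 and 0.87), of Notch3 in B against N (-0.50) and of Notch1, Jag2 and Hey1 in S against N (0.83, -0.76 and 0.92) were lost. With the values as deposited, Notch1 in S against N was at 0.81 and no longer called, and with a pseudocount of 0.1 Notch3 in S against B was called, at 1.51. Calls gained as deposited were those of Hes1 in S against N (-1.01) and Dll1 in B against N (-1.05), and the latter was also called with a pseudocount of 0.1 (-1.07). Jag1 in B against N was called higher with a pseudocount of 0.1 (1.04), with factors from protein-coding genes (1.03) and with equal totals (1.09).

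**Figure D4:**
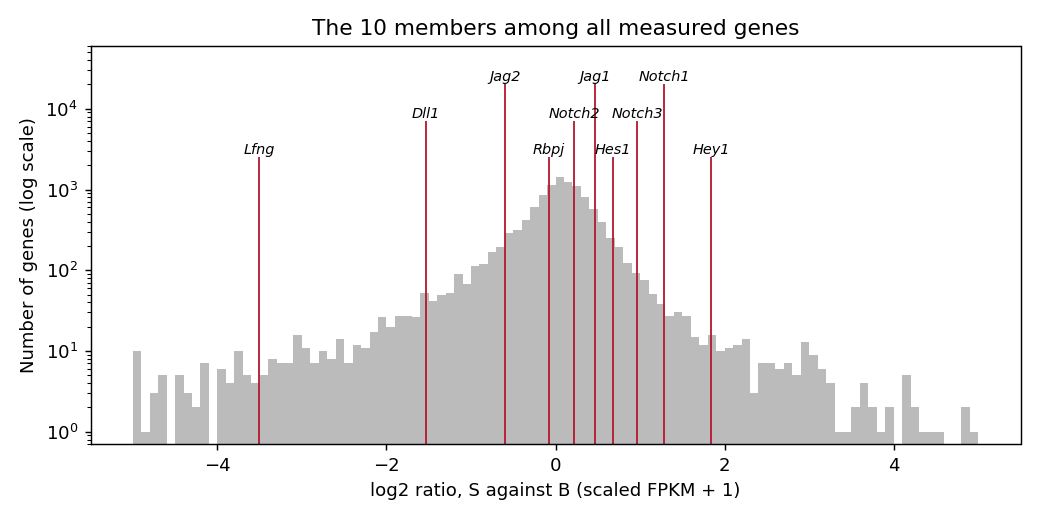
Histogram of the log2 ratio of S against B over the 11575 measured genes (number of genes on a log scale, ratios beyond 5 in size drawn at the edge), with a red line at each member. Most genes lie near 0, where Rbpj sits at -0.08, and Lfng lies in the left tail at -3.51.

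By place of highest level, 5 members were highest in N (Notch2, Notch3, Jag2, Dll1 and Hes1), 3 in S (Notch1, Jag1 and Hey1) and 2 in B (Lfng and Rbpj). No size limit was set on this. The highest level was from 1.06-fold (Rbpj) to 6.46-fold (Hey1) above the next, with Notch2 at 1.25-fold and Notch3 at 1.27-fold. The shares of all measured genes highest in each library were not counted, so these numbers have no background. The gene nearest to Lfng in its pair of log2 ratios (B over N and S over N, 3 libraries) was Thbs1, which encodes thrombospondin 1, at 10.2 (N), 15.0 (B) and 0.227 (S), at a distance of 0.24. It was the only one of 5363 protein-coding genes with a mean of at least 5 that lay within 0.25. Hes1 had 8 such genes, led by Npc1, a cholesterol transport gene (31.6 in N, 11.3 in B and 17.2 in S). Notch1 had 20, led by the kinase gene Stk17b (4.23, 3.69 and 9.27), Jag1 had 50, led by the syndecan gene Sdc2 (4.38, 9.48 and 13.5), and Rbpj had 227, led by Psip1 (4.93, 7.94 and 7.37).

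Of 74 other pathway genes on 10 lists, 52 were measured, of which 1 was higher in S than in B and 4 were lower, with a median log2 ratio of 0.05. Over all measured genes the shares were 3.89% and 5.93% and the median 0.06. All 8 measured genes of receptor cleavage stayed within the limit in all 3 comparisons. The most abundant of them was Psenen, a subunit of the gamma-secretase that frees the Notch intracellular domain, at 51.9 (N), 47.6 (B) and 59.7 (S). Of 8 genes of the Rbpj complex, the coactivator gene Maml2 was higher in B than in N (3.12 against 0.860) and the others were not called.

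Neurl1b, which encodes a ubiquitin ligase that acts on Notch ligands, was the gene higher in S than in B, at 8.37 and 1.77, with 3.38 in N. The glycosylation gene Eogt, which adds GlcNAc to extracellular EGF repeats such as those of Notch, was lower in S, at 5.79 against 14.4 in B and 22.0 in N. So was Dlk2, a non-canonical ligand gene that can inhibit Notch, at 0.244 in S, 1.77 in B and 6.98 in N. The corepressor gene Tle2 was at 0.841 in S, 3.18 in B and 0.778 in N. Ccnd1, the cyclin D1 gene and a reported Notch target, was at 0.806 in S, 6.15 in B and 8.86 in N.

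Against N, 5 of the 52 were higher in B and 4 lower, and 6 were higher in S and 8 lower, with median log2 ratios of 0.01 and 0.21. Over all measured genes 7.27% were higher and 7.1% lower in B, and 9.56% and 10.9% in S. Lower in both were Dlk2, the corepressor gene Spen (8.25 in N, 3.00 in B and 3.03 in S) and L3mbtl3 (4.55, 1.74 and 1.08). So was the target gene Gata3, a transcription factor gene of epidermis (43.6, 13.2 and 8.51). Higher in both were Dtx3 (0.596, 3.45 and 2.49) and the target genes Id3 (22.7, 77.9 and 112) and Sox9 (4.24, 18.0 and 25.2), the latter also a bulge marker. Of the 8 measured genes on the list of other Notch targets, which includes Notch3, 2 were higher and 2 lower than N in each bulge library. Tle4 passed the limit upwards in S (15.4 against 6.83 in N) and not in B, and Fbxw7, whose product marks the Notch intracellular domain for degradation (3.47 against 9.48), did so downwards. The difference between the bulge layers was within the limit for Tle4 and Fbxw7. Cdkn1a, which encodes the cell cycle inhibitor p21 and is a Notch target in keratinocytes, was the most abundant target on its list, at 126 (N), 93.9 (B) and 184 (S), and was not called.

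**Figure D5:**
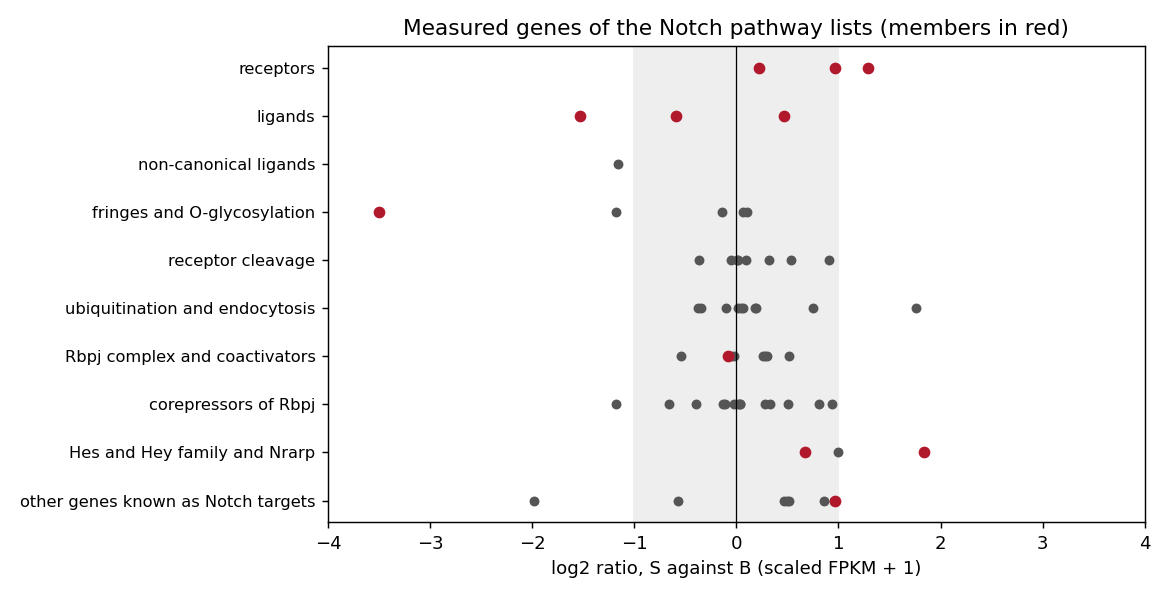
Log2 ratio of S against B for each measured gene of the 10 pathway lists, 1 dot per gene with the members in red and the grey band from -1 to 1. Cleavage genes and the Rbpj complex all lie inside the band, and Lfng lies farthest out at -3.51.

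Several marker lists moved with the same contrasts. Summed spinous layer markers were at 3675 (N), 1673 (B) and 881 (S), the order of Jag2 and Dll1. The largest part was Krtdap in N and B (2868 and 1134, with 337 in S). In S it was Sbsn, which ran the opposite way, at 84.9 (N), 122 (B) and 460 (S). Inner bulge and companion markers summed to 3.14 (N), 93.6 (B) and 424 (S), the order of Jag1 and Hey1. Neither order was particular to these lists. Basal keratinocyte markers, at 1784 (N), 1463 (B) and 1295 (S), also had the order of Jag2 and Dll1. Bulge markers, at 1024 (N), 2102 (B) and 4007 (S), also had that of Jag1 and Hey1. T cell markers summed to 53.4 (N), 25.8 (B) and 6.04 (S), mostly from Trbc2 (33.0, 19.8 and 4.01) and Thy1 (18.3, 4.99 and 0.673), while Cd3e, of the T cell receptor complex, was at most 1.18. Langerhans and myeloid markers summed to 34.0, 13.6 and 18.2, with 1 of 7 at 0 in B and 1 in S. Melanocyte markers summed to 2.41, 17.7 and 35.4, nearly all from Mitf (2.08, 16.4 and 34.4). Fibroblast markers summed to 0.575, 2.17 and 2.58. The part of these in the members' differences was not tested.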

How the data were processed

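RNA of sorted epidermal cells from 4 pooled mice per population was amplified with poly(T) and random priming and read in pairs of 75 bp, per the labels' protocols. The files hold FPKM values per Ensembl gene that the authors deposited, 1 file per population. The N and S columns are headed FPKM, and the unit of B was assumed to be the same. Its rows and positions were the same as in N. At the fitted depth, 97.9% of its low values in genes of 1 exon came within 0.1 of a whole number of fragments. In N 95.7% did and in S 97.1%, against 20.0% for evenly spread values. Each depth was chosen to make this share high, so 20.0% is not its chance level. Whole numbers show counts over length and do not by themselves fix the unit. The submitters' processing notes list the mm10 build, DESeq2, Cufflinks 2.1.1 and TopHat2 2.0.12 without saying what each was used for. The annotation and filters are likewise not stated in the sources used here.

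Rows of 1 symbol were summed, and the values divided by median-of-ratios factors from the 18559 genes with values above 0 throughout (N 1.10, B 0.981, S 0.923). Log2 ratios used a pseudocount of 1. Depth came from the steps between low values. On exon lengths of GENCODE M21 only 31.3% to 32.6% of low values of genes with several exons were whole, so fragments per member are approximate and the planned counting intervals are not given. The size rule was checked on simulated libraries with counting error only and the same length for every gene. That check does not cover amplification or differences between mice. Calculations used Python 3.11.15 and pandas 2.3.3.

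The members and lists were chosen with earlier results of these data known. Named genes are the members, the most abundant gene of pathway lists, pathway genes past the limit in any comparison, measured or most abundant markers, and the nearest profiles. Genes named beside these complete a class or a list sum. Alternatives were pseudocounts of 0.1 and 5, other filters, scalings and size limits.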

Additional observations from a re-analysis of the deposited data

Results flagged for a closer look

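Notch1 and Lfng were each on opposite sides of N in the bulge layers, by sign and without a size limit. Notch1 was below N in B (log2 ratio of -0.24, not called) and above it in S (1.05), a difference between S and B of 1.29. Lfng was above N in B (0.55, not called) and below it in S (-2.96), a difference of -3.51. For both genes only S was called against N. With 1 library per group the difference was not tested, and both ratios share the N library.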

How the results depend on the processing

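The 30 log2 ratios of the members (10 genes, 3 comparisons) kept their sign under each alternative scaling. Pseudocounts and filters cannot change the sign of a ratio, so they do not bear on it. The filter on a mean of at least 5 left out Notch2, Notch3, Jag2, Dll1 and Hey1, and so 15 of the ratios. Of 12 called ratios, 4 were measured and stayed called under every alternative pseudocount, filter and scaling. They were Lfng in S against B and against N, Jag1 in S against N, and Hes1 in B against N. Dll1 in S against N stayed called wherever it was measured. The other 7 were lost with a pseudocount of 5. A call was gained by Hes1 in S against N as deposited (-1.01, lower). Dll1 in B against N gained a call as deposited (-1.05, lower) and with a pseudocount of 0.1 (-1.07, lower). Notch3 in S against B gained a call with a pseudocount of 0.1 (1.51, higher). Jag1 in B against N was called higher with a pseudocount of 0.1 (1.04), factors from protein-coding genes (1.03) and equal totals (1.09). With values as deposited, the median of all genes moved to -0.18 in both comparisons with N.

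Members higher and lower in S against B numbered 2 and 2. With a pseudocount of 5 they numbered 0 and 1, with a mean of at least 5 (5 members left) 1 and 1, and with a limit of 3-fold 1 and 1. With a limit of 1.5-fold 4 were higher. In B against N the counts were 0 and 2. Jag1 was higher, as 1 member, with a pseudocount of 0.1, with factors from protein-coding genes and with equal totals. With a limit of 1.5-fold 2 were higher and 4 lower. The number lower was 1 with a pseudocount of 5 and with a mean of at least 5, and 0 with a limit of 3-fold. In S against N the counts were 3 and 3. There was 1 higher with a pseudocount of 5 and with a limit of 3-fold, and 1 lower with a mean of at least 5.

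The other pathway genes in S against B numbered 1 higher and 4 lower. With a pseudocount of 0.1, 4 were higher. With a pseudocount of 5 there were 0 and 0, with a mean of at least 5, 0 and 2. A limit of 1.5-fold gave 8 higher, and one of 3-fold 1 lower. In B against N they numbered 5 and 4, with 2 and 1 under a pseudocount of 5, a mean of at least 5 and a limit of 3-fold, 7 lower as deposited and 11 lower at 1.5-fold. In S against N they numbered 6 and 8, with 2 and 4 under a pseudocount of 5 and a limit of 3-fold, 3 and 5 with a mean of at least 5, 3 higher as deposited and 13 higher at 1.5-fold. A higher pseudocount shrinks ratios of low genes by construction, and a higher mean tests fewer genes. For the scalings the cause was not tested. No paired analysis was possible because each group had 1 library.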
